A study of Stylophora pistillata with 18 samples.

Results

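Coding regions cut into 30 or more segments were studied in adult Stylophora pistillata, a reef-building stony coral, after incubation with cyclic dinucleotides, the second messengers made by cGAS and its relatives. In vertebrates 2'3'-cGAMP binds the receptor STING. In eukaryotic genes the coding sequence is split by introns, and genes with many coding segments often encode large proteins built from repeated modules, such as extracellular matrix, adhesion and motor proteins. An intron can fall between codons (phase 0), after the first base of a codon (phase 1) or after the second (phase 2). A segment with the same phase at both ends can be repeated without shifting the reading frame, and in animals phase 1 segments of that kind are typical of extracellular modules.

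The members were all gene models of the deposited annotation whose source was the predictor Gnomon, which had at least 30 coding segments and at least 10 counts in at least 3 of the 18 libraries. Of 29419 models in the table, 24830 came from Gnomon, 686 of those had 30 or more coding segments, and 680 also passed the count filter. No measured response entered this choice. A coding segment is a CDS feature of the annotation, so untranslated exons are not counted and lengths are coding lengths. The annotation pairs models with no product, so no function is given to any of them. Symbols were available for 299 of the 680, all of them LOC numbers of the RefSeq assembly jaStyPist1.2. The comparison set was the 16529 Gnomon models of 2 to 29 coding segments past the same count filter.

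Specimens of 2 wild type adult colonies spent 18 h in plain seawater (control) or in seawater to which 3'3'-cUA or 2'3'-cGAMP had been added at 250 µM. Each treatment has 6 libraries, 3 labelled as from each colony. Some members, given further below, divided the libraries in a way that does not follow these labels. All results by colony are thus for the colonies as labelled. The compounds, called cUA and cGAMP below, carry uracil and adenine or guanine and adenine, and their nucleotides are linked differently. A library name such as control 1A gives the treatment, the colony (1 or 2) and the specimen (A to C). Whether specimens of a colony were independent is not stated in the labels, so p-values reflect only how far these specimens varied, and 2 colonies are a narrow sample of the species. The RNA came from whole colony material, in which fewer cells of a type and less RNA per cell cannot be told apart, and no cell type marker could be matched to a model.

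Library totals ran from 22175801 to 41800393 counts. The TMM scaling factors were 0.714 in control 1A and 0.619 in cUA 2A, and 0.862 to 1.23 in the other libraries. Members held between 3.8% of all counts (cUA 2C) and 6.81% (cUA 1A). Levels below are CPM, counts scaled to library size by TMM, with SD over the 6 libraries of a treatment.

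The members had 30 to 170 coding segments, with a median of 38. Their coding length ran from 1937 to 52554 bases around a median of 4918.5, against a median of 1197 in the models of 2 to 29 segments. The median of their typical segment length was 100 bases, against 103 bases in Gnomon models of 10 to 29 segments and 140.5 bases in those of 2 to 29. Typical introns had a median of 450 bases in members, 513 in models of 10 to 29 segments and 585 in those of 2 to 29. Segments and introns of members were thus smaller than in the comparison set as a whole and closer in size to those of its models with 10 or more segments.

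Reading frames gave the first difference in make-up. Of the 28971 introns between coding segments of members, 49.3% were phase 0, 29.5% phase 1 and 21.3% phase 2, against 45.5%, 32.1% and 22.5% in models of 10 to 29 segments. Internal segments with equal phase at both ends made up 47.8% in members and 42.1% in those models. Runs of equal length were more common too, as 43 members (6.32%) had at least 10 internal segments of exactly the same length, against 0.431% of models with 10 to 29 segments, which have fewer segments to match. Members lay on 364 scaffolds. 33 runs of neighbouring members held 72 of them, and the longest run had 4.

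From these lengths and frames, and with their values already known, the members were put in 4 classes. Models whose commonest internal segment was 54 bases long and occurred at least 10 times are called 54-base arrays and number 14. Models outside that class in which at least 50% of internal segments were phase 1 at both ends number 51, those with at least 50% phase 0 at both ends number 44, and the remaining 571 are called other members. In vertebrates the exons of fibrillar collagen triple helices are known to be mostly 54 bases long, to start and end between codons, and to come in other multiples of 9 such as 45 bases. That is background on vertebrates, and no protein sequence was matched to the coral models here.

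678 of the 680 members passed the expression filter and were tested with edgeR in a fit across all 21375 tested models. 24 members rose with cUA and 25 fell, which is 3.54% and 3.69% of them, where 5.91% of all tested models rose and 4.29% fell. With cGAMP 45 members rose (6.64%) and 82 fell (12.1%), where 9.22% and 12.3% of all tested models did so. In this fit the members' rises were below the background share for both compounds and their falls close to it. Without control 1A and cUA 2A, the libraries with the lowest scaling factors, 113 members (16.7%) rose with cGAMP where 16.5% of all tested models did, so that the lower share of rises with cGAMP was not seen there. Calls over 2-fold were made for 10 members that rose (1.47% of members tested, 4.49% of all tested models) and 21 that fell (3.10%, 3.48%) with cUA. With cGAMP they were made for 19 that rose (2.80%, 6.09%) and 50 that fell (7.37%, 9.76%). 547 of the 678 (80.7%) were called with neither compound. In either direction 7.23% of members were called with cUA and 18.7% with cGAMP, beside 10.2% and 21.5% of all tested models. Both comparisons share the control libraries.

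The middle of the members barely moved. Their median log2 fold change was -0.02 with cUA and -0.05 with cGAMP, beside -0.02 and -0.07 over all tested models. All cUA libraries lay above all control libraries for 15 members (2.21%, background 3.14%) and below them for 6 (0.885%, background 2.19%). For cGAMP these counts were 22 above (3.24%, background 5.56%) and 33 below (4.87%, background 4.88%). Without control 1A and cUA 2A 46 members (6.78%) rose and 33 (4.87%) fell with cUA, beside 7.71% and 5.93% of all tested models. In the same setting 110 members (16.2%) fell with cGAMP, beside 18.0% of all. With scaling by total counts alone, which shifted the median of all tested models to -0.10 with cUA and -0.24 with cGAMP, 14 members (2.06%) rose and 23 (3.39%) fell with cUA, beside 4.12% and 3.64% of all. There 25 members (3.69%) rose and 86 (12.7%) fell with cGAMP, beside 6.39% and 13.5% of all.

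The calls were spread unevenly over the classes. The 12 tested 54-base arrays all fell with cUA and all fell with cGAMP. Among all tested models 5.91% rose and 4.29% fell with cUA, and 9.22% and 12.3% with cGAMP. Of the 51 phase 1 members 1 rose (1.96%) and 6 fell (11.8%) with cUA, while 4 rose (7.84%) and 16 fell (31.4%) with cGAMP. None of the 44 phase 0 members was called with cUA in the edgeR test. Of these 5 had an unadjusted p below 0.05 (23.3% of all tested models did) and DESeq2 called 2 lower (7.10% of all). With cGAMP 2 phase 0 members rose (4.55%) and 7 fell (15.9%). The 571 other members gave 23 that rose (4.03%) and 7 that fell (1.23%) with cUA. With cGAMP they gave 39 that rose (6.83%) and 47 that fell (8.23%). 13 of the 25 falls with cUA were thus outside the arrays. The classes were set after values had been seen, so these counts describe the members and were not tested.

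**Figure D1:**
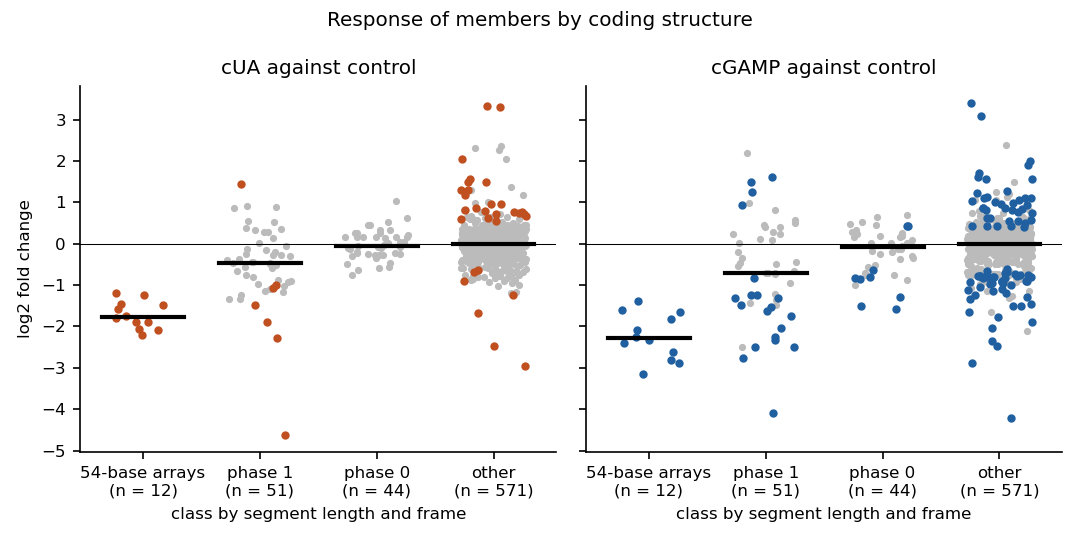
Log2 fold change of each tested member with cUA (left) and cGAMP (right) against control, by class of coding structure, where each point is a model, coloured points have an adjusted p below 0.05 and bars are class medians. The 12 arrays of 54-base segments all lie below -1, with medians of -1.77 and -2.28, while the median of the 571 other members lies at 0.00 and -0.01.

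The 54-base arrays were alike in structure. Each held 16 to 46 internal segments of 54 bases, and the member next in rank held 7. Of their 853 internal segments 523 (61.3%) were 54 bases long and 99 (11.6%) were 45 bases long. In other members 0.908% of internal segments had 54 bases, and in models of 2 to 29 segments 0.678%. Lengths that are a multiple of 9 made up 86.0% of array segments, 15.5% in other members and 14.1% in models of 2 to 29 segments. Between 74.3% and 96.9% of the internal segments of each array model were phase 0 at both ends. A segment of 54 bases, or of any multiple of 9, is a whole number of codons, so its phase is equal at both ends. Neighbouring segments of such lengths also share their phase. The equality of the ends thus follows largely from the length rule, and only which phase it was did not enter that rule.

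9 of the 14 arrays lay on scaffold NW_019217806.1 between positions 601638 and 1175958, a stretch that holds 24 models, and the others lay on 5 further scaffolds. Positions are those of the deposited annotation, whose build is not given in the sources used here. How reads that match several places were counted is also not given, so reads may be split between array models that resemble each other, and their single values are uncertain to that extent.

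Summed over the 12 tested arrays, the control libraries held 8662 CPM (1A), 2966 (1B), 3269 (1C), 6442 (2A), 2836 (2B) and 1204 (2C). The cUA libraries held 1380, 1219 and 1360 CPM in colony 1 and 826, 1187 and 876 in colony 2. The cGAMP libraries held 1035, 659 and 725 CPM in colony 1 and 733, 626 and 680 in colony 2. All cGAMP libraries were below all controls, whereas the cUA libraries overlapped control 2C, the lowest control. Group means were 4230 ± 2763 CPM in control, 1142 ± 238 with cUA and 743 ± 148 with cGAMP (SD, n = 6). Controls were by far the more variable group, and control 1A, the highest, is also a library with a low scaling factor.

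**Figure D2:**
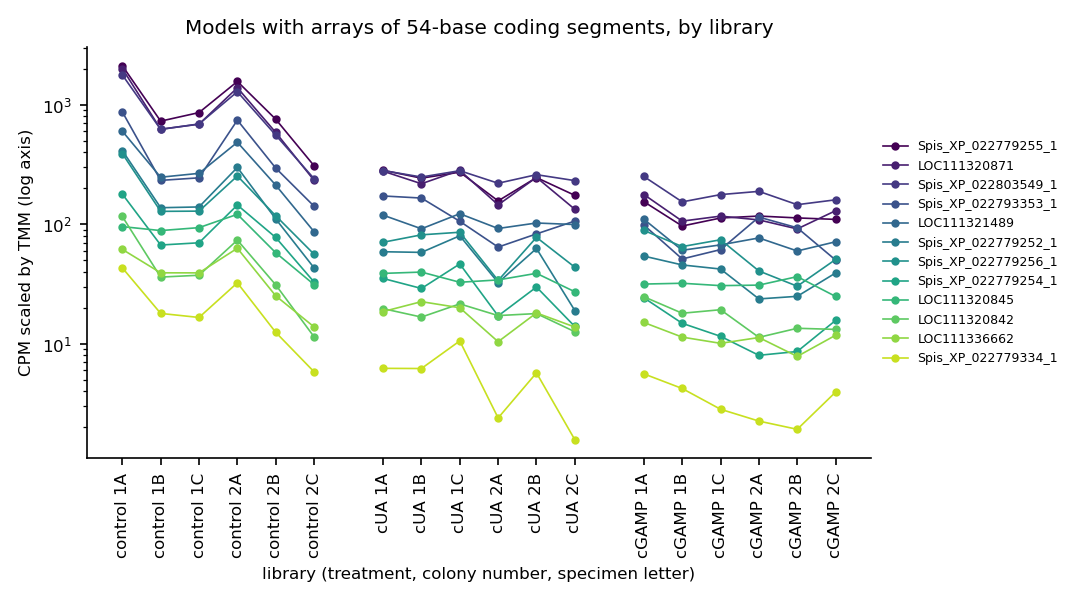
CPM scaled by TMM (log axis) of the 12 tested models with arrays of 54-base coding segments in each of the 18 libraries, where lines join the values of a model within a treatment and carry no order in time. The models move together from library to library, controls 1A and 2A are the highest, and control 2C comes down to the range of the cUA libraries.

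Log2 fold changes of the 12 arrays ran from -2.20 to -1.20 with cUA (median -1.77) and from -3.15 to -1.37 with cGAMP (median -2.28). In colony 1 alone they ran from -2.25 to -1.22 with cUA and in colony 2 alone from -2.38 to -1.06. The same ranges with cGAMP were -3.37 to -1.53 and -2.99 to -1.20. In these smaller edgeR fits, 6 arrays passed the adjusted threshold with cUA in colony 1 alone, where 2.19% of all tested models fell. In colony 2 alone 0 arrays passed it (0.389% of all tested models fell), and all 12 had an unadjusted p below 0.05. With cGAMP 11 and 4 passed it, where 7.33% and 1.41% of all tested models fell. Without control 1A and cUA 2A the 12 arrays still fell with both compounds, but by less. The median there was -1.32 with cUA and -1.92 with cGAMP, over the 13 arrays in that fit.

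Array models also followed each other within treatments. Pearson's r of log2 CPM between pairs of them over the 18 libraries ran from 0.827 to 0.996 (median 0.926, 66 pairs), and from 0.554 to 0.990 (median 0.857) after treatment means were taken out. The pairs share libraries and scaling factors, and the models may share reads.

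The most abundant array model in control was Spis_XP_022779255_1 (NW_019217806.1, 924707 to 981221, minus strand), with 66 coding segments of which 43 have 54 bases. It held 2117, 728 and 858 CPM in the colony 1 controls and 1563, 755 and 308 in those of colony 2. With cUA it held 283, 243, 272, 157, 246 and 174 CPM, and with cGAMP 154, 96.5, 113, 117, 113 and 110, in the order 1A to 2C. Every treated library was below every control, and every cGAMP library was below every cUA library. The log2 fold change was -2.20 ± 0.33 (SE, adjusted p = 0.000298) with cUA and -3.15 ± 0.35 (adjusted p = 6.4e-06) with cGAMP. It was the only tested array model whose cUA and control libraries did not overlap. With cUA the adjusted p was 0.0520 when colony 2 was tested alone, the highest of the alternatives.

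LOC111320871 (Spis_XP_022779335_1, NW_019217806.1, 1121563 to 1175958, minus strand) had 67 coding segments, 38 of them of 54 bases. Its CPM in the controls had a lowest value of 233, a median of 655 and a highest of 2004, with cUA 133, 232 and 282, and with cGAMP 91.3, 113 and 177. The cGAMP libraries all lay below the controls, while cUA overlapped the lowest control. The log2 fold changes were -2.08 ± 0.37 (SE, adjusted p = 0.00126) and -2.89 ± 0.38 (adjusted p = 4.33e-05).

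Spis_XP_022803549_1 shows the pattern away from that scaffold, on NW_019217797.1 (607677 to 646486, minus strand), with 34 of its 52 coding segments 54 bases long. It went from 860 ± 561 CPM in control to 253 ± 25.03 with cUA and 179 ± 38.4 with cGAMP (SD, n = 6). Its highest treated library, cUA 1A at 281 CPM, was above control 2C at 240 CPM, so the groups overlapped in that library. On the log2 scale the changes were -1.74 ± 0.33 (adjusted p = 0.00219) and -2.24 ± 0.34 (adjusted p = 0.000143).

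At the low end of the arrays, Spis_XP_022779334_1 (77 coding segments, 41 of 54 bases) went from 21.4 ± 13.8 CPM to 5.44 ± 3.22 with cUA and 3.46 ± 1.39 with cGAMP. Its log2 fold changes of -2.05 and -2.63 were as large as those of arrays with far higher levels. Spis_XP_022779254_1 (67 segments, 41 of 54 bases) fell by 1.79 with cUA and by 2.82 with cGAMP on the log2 scale, from a control level of 95.1 ± 54.9 CPM. Spis_XP_022779252_1 (53 segments, 35 of 54 bases) went from 190 ± 138 CPM to 51.8 ± 22.2 and 38.3 ± 11.9.

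LOC111320845 on NW_019217785.1 had the smallest changes of the arrays, with log2 fold changes of -1.20 ± 0.23 (adjusted p = 0.0025) and -1.37 ± 0.23 (adjusted p = 0.000444). LOC111320842, the first array on NW_019217806.1, lost its cUA call when control 2A was left out, where 11 of the 12 arrays were called. The untested arrays, Spis_XP_022779250_1 and Spis_XP_022779251_1, lie side by side on that scaffold. They had 46 and 57 counts summed over the controls, 35 and 26 over the cUA libraries, and 12 and 5 over the cGAMP libraries. Between neighbouring arrays there also lies Spis_XP_022779253_1, which is no member with its 18 segments, 5 of them of 54 bases, and had log2 fold changes of -1.53 (adjusted p = 0.0158) and -2.01 (adjusted p = 0.00127).

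The phase 1 members were long and scarce. Their median coding length was 8859 bases and their median control level 15.0 CPM, or 1.79 CPM per kilobase of coding sequence against 8.45 over all tested members. Their mean log2 CPM was 3.17 ± 0.563 in control, 2.73 ± 0.302 with cUA and 2.63 ± 0.201 with cGAMP (SD, n = 6). Libraries overlapped between all 3 treatments on this measure, with controls from 2.50 to 4.001, cUA from 2.22 to 3.03 and cGAMP from 2.25 to 2.79. The median log2 fold change was -0.46 with cUA and -0.70 with cGAMP. 31.4% of them fell with cGAMP, beside 18.8% of the 388 phase 1 models with 10 to 29 segments and 12.3% of all tested models. With cUA 11.8% fell, beside 12.9% of those phase 1 models and 4.29% of all. Spread moved with the class as well, since the median residual SD of log2 CPM within treatment and colony was 0.72 in these members and 0.388 in the other members. Low level and high spread were also found in the phase 1 models of 10 to 29 segments (medians 2.34 CPM per kilobase and 0.693). The part of level and spread in these shares was not tested.

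Spis_XP_022799605_1 (54 coding segments, NW_019218121.1, 224573 to 273424, minus strand) was a phase 1 member whose groups stood fully apart. The controls held 9.97, 9.08, 10.3, 11.8, 6.01 and 4.56 CPM, the cUA libraries 2.77, 1.63, 2.38, 1.42, 1.29 and 1.29, and the cGAMP libraries 1.04, 0.718, 1.29, 1.503, 1.74 and 1.08. Each treated library was below each control. The log2 fold changes were -2.27 ± 0.30 (adjusted p = 7.19e-05) and -2.77 ± 0.31 (adjusted p = 6.58e-06), and both calls held in every alternative, each colony alone included. Another model overlaps it on the opposite strand, and the strand setting of the counts is not given in the sources used here.

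A larger change at a lower level was seen in Spis_XP_022799980_1 (30 coding segments, 26 of 28 internal ones phase 1 at both ends), which lies under the mean level of 1 CPM asked of named members and is named here after its values were seen. It held 1.34 to 3.99 CPM in the controls, 0.0315 to 0.247 with cUA and 0.0402 to 0.248 with cGAMP. The treated libraries were all below the controls. On the log2 scale the changes were -4.62 ± 0.42 (adjusted p = 2.07e-06) and -4.09 ± 0.40 (adjusted p = 2.09e-06).

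The member with the most coding segments, Spis_XP_022787471_1 on NW_019217885.1 (274401 to 371368, minus strand), also belonged to the phase 1 class. It had 170 coding segments over 21740 coding bases, and 69 of the segments were 123 bases long. The controls held 83.0, 22.7, 25.2, 55.0, 31.6 and 17.4 CPM, the cUA libraries 33.0, 25.2, 23.2, 16.3, 17.4 and 13.6, and the cGAMP libraries 14.6, 14.1, 12.01, 18.6, 9.58 and 23.3. Controls 1A and 2A stood above all treated libraries and the other controls overlapped them. The log2 fold change was -0.89 ± 0.34 with cUA (adjusted p = 0.117) and -1.32 ± 0.35 with cGAMP (adjusted p = 0.0111), and with cGAMP the adjusted p was 0.221 when colony 2 was tested alone.

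Not all phase 1 members went down. LOC111333368 (33 segments) rose with both compounds, from 153 CPM to 398 with cUA and 418 with cGAMP (log2 fold changes 1.45, adjusted p = 0.0276, and 1.49, adjusted p = 0.0119). Spis_XP_022794651_1 (34 segments) rose with cGAMP (log2 fold change 1.60, adjusted p = 0.00811), and its value with cUA was 0.89 (adjusted p = 0.174). Both were picked after their values were seen.

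Among other members the largest fall with cGAMP belonged to Spis_XP_022800806_1 (37 coding segments, NW_019218157.1, 131586 to 160620, minus strand). The controls held 17.4, 25.1, 14.1, 22.7, 5.17 and 2.38 CPM, the cUA libraries 3.30, 0.801, 2.87, 4.08, 3.28 and 1.24, and the cGAMP libraries 0.198, 0.718, 0.901, 0.940, 0.962 and 0.925. All cGAMP libraries were below all controls, and cUA overlapped the lowest control. The log2 fold changes were -2.47 ± 0.54 (adjusted p = 0.00615) and -4.20 ± 0.59 (adjusted p = 7.37e-05). With cUA the adjusted p was 0.232 when colony 2 was tested alone.

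For each compound the 3 largest called rises were those of models with more than 70 coding segments. Spis_XP_022797661_1 (84 segments, 16182 coding bases, NW_019218070.1, 74649 to 130503, minus strand) held 33.1, 30.4, 25.6, 31.7, 22.1 and 18.2 CPM in the controls. It held 149, 147, 312, 808, 166 and 76.6 CPM with cUA and 295, 257, 284, 400, 107.8 and 382 with cGAMP. Treated libraries were all above the controls, and cUA 2A stood far above the other cUA libraries. On the log2 scale the changes were 3.33 ± 0.49 (adjusted p = 0.000228) and 3.41 ± 0.49 (adjusted p = 9.55e-05), and both calls held in all alternatives, with a lowest value of 2.61 for cUA and 3.22 for cGAMP.

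Next to it on the same strand lies Spis_XP_022797653_1 (83 segments, 17223 coding bases, 6734 to 66328). It rose from 25.4 ± 5.25 CPM to 71.7 ± 31.6 with cUA and 74.8 ± 20.1 with cGAMP. The cGAMP libraries were all above the controls, and cUA 2C at 24.7 CPM lay within them. The log2 fold changes were 1.49 ± 0.29 (adjusted p = 0.00255) and 1.56 ± 0.29 (adjusted p = 0.000934). In colony 2 alone neither call held (adjusted p = 0.157 and 0.107).

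Spis_XP_022783818_1 (85 segments, 15981 coding bases, NW_019217844.1, 766098 to 841953, plus strand) had the tightest rise. The controls held 14.2, 16.98, 14.5, 20.9, 14.8 and 16.8 CPM, the cUA libraries 59.6, 48.9, 62.9, 47.8, 44.7 and 29.3, and the cGAMP libraries 69.9, 68.0, 66.1, 88.0, 43.6 and 59.5. Every treated library was above every control. On the log2 scale the changes were 1.56 ± 0.19 (adjusted p = 3.88e-05) and 2.00 ± 0.19 (adjusted p = 1.91e-06), the smallest adjusted p of any member with cGAMP. With cUA the adjusted p was 0.0823 when colony 2 was tested alone.

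LOC111336080 (37 segments, NW_019218075.1) rose from 37.5 ± 14.2 CPM to 98.98 ± 40.5 with cUA and 141 ± 73.0 with cGAMP, and all treated libraries were above all controls. With cUA the separation was narrow, as cUA 2C held 55.8 CPM and control 2B 55.6. The log2 fold changes of LOC111336080 were 1.49 ± 0.29 (adjusted p = 0.00287) and 1.91 ± 0.30 (adjusted p = 0.000189). Its cUA call was lost when colony 2 was tested alone (adjusted p = 0.257). Spis_XP_022806306_1 (72 segments, NW_019218419.1) was scarce in control at 0.597 ± 0.143 CPM and rose to 6.25 ± 7.53 with cUA and 5.12 ± 3.18 with cGAMP. Its cUA libraries ran from 0.716 to 21.1 CPM, so that the lowest was within the controls, while its cGAMP libraries, from 1.09 to 9.97, were all above them. The log2 fold changes were 3.31 ± 0.65 (adjusted p = 0.00268) and 3.08 ± 0.64 (adjusted p = 0.00221). Both calls were lost when colony 2 was tested alone (adjusted p = 0.108 and 0.120).

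**Figure D3:**
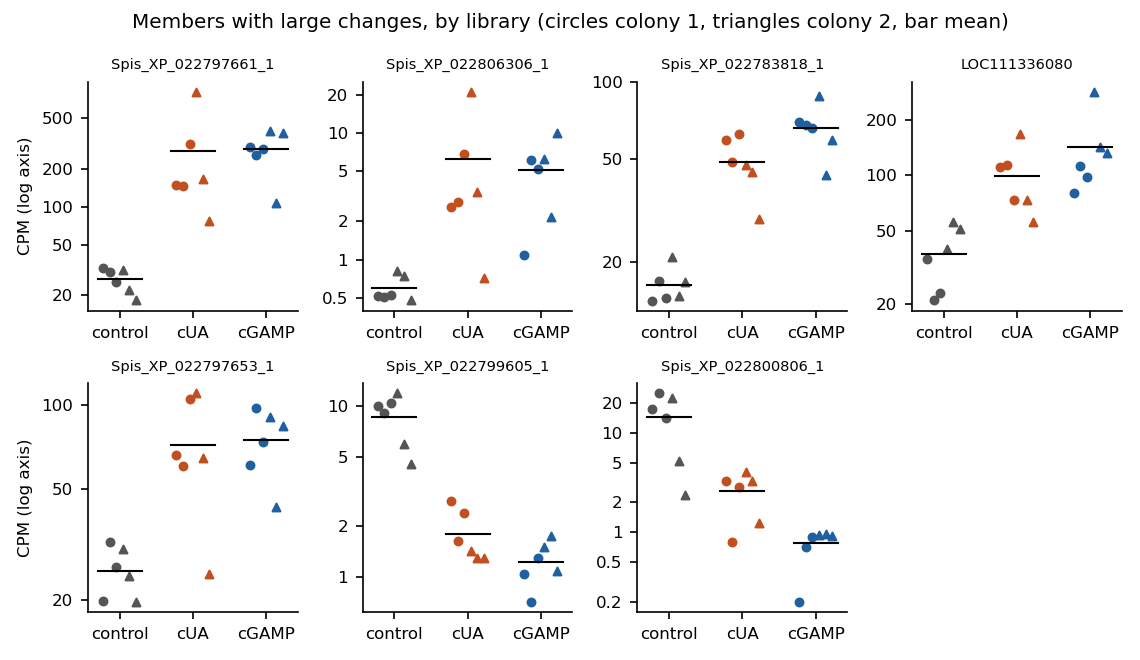
CPM (log axis) per library of 5 members that rose and 2 that fell with both compounds, with circles for colony 1, triangles for colony 2 and bars for the mean of 6 libraries. Spis_XP_022797661_1, Spis_XP_022783818_1, LOC111336080 and Spis_XP_022799605_1 show no overlap between control and treated libraries, and cUA 2A is the highest cUA library of 4 of the 5 risers. The lowest cUA library of LOC111336080 (55.8 CPM) is barely above its highest control (55.6 CPM).

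Other rises were less steady. LOC111328748 (42 segments), an abundant member, went from 470 ± 130 CPM to 1072 ± 248 with cUA and 1551 ± 674.5 with cGAMP. Its cUA libraries were all above the controls, but the adjusted p of 0.0233 (log2 fold change 1.18 ± 0.32) passed the threshold no longer when cUA 1B or 1C or control 1B, 1C or 2C was left out (adjusted p 0.0558 to 0.0620). With cGAMP the log2 fold change was 1.71 ± 0.32 (adjusted p = 0.000947). The cUA rise of LOC111328694 (87 segments; log2 fold change 2.05 ± 0.59, adjusted p = 0.0332) rested in part on cUA 2A, which held 65.6 CPM where the other cUA libraries held 8.21 to 13.7. Without that library it was 1.16 (adjusted p = 0.0958), and without control 1B, 2A, 2B or 2C the adjusted p was 0.0594 to 0.0735. Spis_XP_022796391_1 (90 segments) rose with cGAMP by 1.605 ± 0.463 on the log2 scale (adjusted p = 0.0187), and its cUA value was 1.36 ± 0.47 (adjusted p = 0.0717). When colony 2 was tested alone, the calls of LOC111328748, LOC111328694 and Spis_XP_022796391_1 were all lost (adjusted p 0.122 to 0.340).

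The remaining members with the most segments gave smaller values. LOC111338391, with 126 coding segments over 38253 bases, went from 141 ± 36.8 CPM to 104 ± 24.6 with cUA and 83.1 ± 13.1 with cGAMP. The log2 fold change with cGAMP was -0.76 ± 0.19 (adjusted p = 0.00685). With cUA it was -0.45 ± 0.19 (adjusted p = 0.142). The cGAMP call was lost in each colony alone. Spis_XP_022780905_1 and Spis_XP_022787361_1, with 123 segments each, and Spis_XP_022778667_1, with 110 segments over 204786 genomic bases, were called with neither compound, and their log2 fold changes lay between -0.37 and 0.14.

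Around the threshold the share of called models followed no steady course. 5.21% of models with 20 to 29 segments, 2.56% of those with 30 to 39 and 4.86% of those with 40 or more rose with cUA, and 3.97%, 2.56% and 5.21% fell. With cGAMP 8.30%, 7.44% and 5.56% rose and 12.004%, 8.72% and 16.7% fell. Members of 40 or more segments, which include all 12 tested arrays, had the highest share of falls with cGAMP of these 3 classes. Just outside the threshold, the 55 tested models of 29 segments gave 1 rise (1.82%) and 3 falls (5.45%) with cUA. With cGAMP they gave 4 (7.27%) and 12 (21.8%). Just inside it, the 59 of 30 segments gave 0 rises by edgeR and 2 falls (3.39%) with cUA, and 6 (10.2%) and 7 (11.9%) with cGAMP. The shares of all tested models were 5.91% and 4.29% with cUA, and 9.22% and 12.3% with cGAMP. With cUA 8 of the 59, 3 of them higher, had an unadjusted p below 0.05 (23.3% of all tested models did). DESeq2 called 0 of the 59 higher with cUA (8.19% of all).

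**Figure D4:**
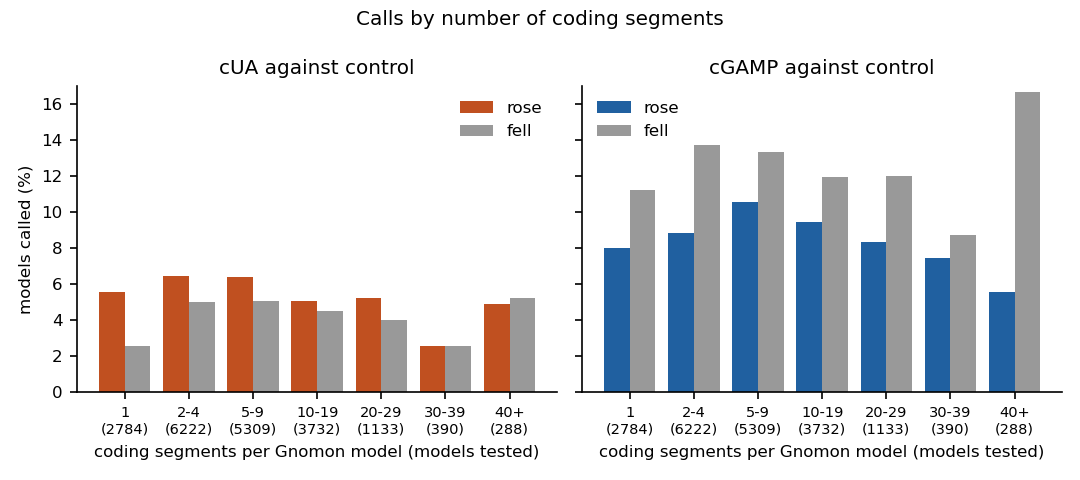
Percent of tested Gnomon models that rose (coloured bars) or fell (grey bars) with cUA (left) and cGAMP (right) at an adjusted p below 0.05, by number of coding segments, with the number of models under each class. Rises are 2.56% in models of 30 to 39 segments with cUA and 5.56% in models of 40 or more with cGAMP, and falls with cGAMP reach 16.7% in the latter.

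Matching changed how the members compared with models of fewer segments. Models of 2 to 29 segments were weighted to the members' distribution of mean log2 CPM in bins of 0.5. In the weighted set 6.998% rose with cUA and 12.5% with cGAMP, against 3.54% and 6.64% of members. Falls made up 3.48% and 9.42% of the weighted set, against 3.69% and 12.1% of members. Without the arrays the members' falls were 1.95% and 10.5%. The median log2 fold change was 0.04 with cUA and 0.05 with cGAMP in the weighted set, against -0.02 and -0.05 in members. Without matching the difference of medians with cGAMP changed sign, from -0.10 to 0.02.

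The gap in rises was also present at like coding length. 623 members had models of 2 to 29 segments of like level and like coding length. Among these members 3.37% rose with cUA and 6.58% with cGAMP, and among the models matched on level and length 13.4% and 17.1% did. Their falls were 3.69% and 11.9% against 2.74% and 7.94%. The 874 tested models of 2 to 29 segments whose coding length lay in the members' interquartile range gave 10.9% rises with cUA and 13.6% with cGAMP. Long models with fewer segments thus rose more often than the members did in both comparisons. Within the members, quartiles of coding length gave 2.94%, 3.55%, 2.96% and 4.71% rises with cUA from the shortest to the longest. No test of these shares was made.

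The gap between members and matched models differed from library to library. A score, the median centred log2 CPM of the members minus that of the matched models, ran from -0.222 (control 2C) to 0.158 (control 2A) in the controls. It ran from -0.491 (cUA 2C) to 0.208 (cUA 1C) with cUA and from -0.258 to 0.0281 with cGAMP. In colony 1 all cUA libraries were above the mean of their controls and in colony 2 all were below it, by 0.132 and -0.233 on average. The TMM factors of cUA 2A and 2C, the libraries with the lowest cUA scores, were 0.619 and 0.862. The part of these libraries in the score was not tested.

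At the same dose and time the compounds were compared directly, in 1 pair. By edgeR 0 members reached an adjusted p below 0.05, and 0% of all tested models did. 48 members (7.08%) had an unadjusted p below 0.05, beside 8.56% of all tested models, and DESeq2 called 1 member, LOC111320831 (adjusted p = 0.0335). The smallest edgeR adjusted p was 0.275. The 95% interval of the difference, not adjusted for the number of models, had a median half-width of 0.53 on the log2 scale. That is not the limit of the adjusted test, which also left larger differences uncalled, among them those given next. Without control 1A and cUA 2A 15 members (2.21%) were called, beside 3.36% of all tested models.

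The smallest p in the direct comparison belonged to LOC111320831 (38 segments, NW_019217806.1), which held 150 ± 21.4 CPM with cUA, 94.5 ± 21.6 with cGAMP and 113 ± 9.81 in control. Its cUA libraries, from 117 to 175 CPM, were all above its cGAMP libraries, from 63.6 to 116. The difference was 0.66 ± 0.17 on the log2 scale (unadjusted p = 0.000823, adjusted p = 0.275). LOC111331709 (31 segments) held 18.5 ± 9.54 CPM with cUA and 6.83 ± 1.90 with cGAMP, a difference of 1.40 ± 0.39 (adjusted p = 0.345). Spis_XP_022783353_1 (107 segments) held 2.27 ± 0.915 and 0.967 ± 0.370 CPM, a difference of 1.17 ± 0.34 (adjusted p = 0.354). For LOC111331727 the difference of -3.43 ± 1.01 (adjusted p = 0.354) came with a single high library, cGAMP 1C at 5.92 CPM, while the other cGAMP libraries held 0.138 to 0.902.

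For the arrays the direct difference was positive in each of the 12, from 0.12 to 1.03, which means higher values with cUA, and none passed the adjusted threshold. In each colony alone the lowest array difference was below zero, at -0.10 in colony 1 and -0.01 in colony 2. Array models followed each other and may share reads, so their like sign is not 12 separate observations. Spis_XP_022779254_1 gave 1.03 ± 0.35 (unadjusted p = 0.00857, adjusted p = 0.412), and Spis_XP_022779255_1 0.94 ± 0.32 (unadjusted p = 0.00916, adjusted p = 0.423). The summed array levels overlapped between the compounds.

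No member's response passed the test for a difference between the colonies as labelled. The interaction of colony and compound was called by edgeR for 0 members with cUA and 0 with cGAMP, where 0% of all tested models were called. An unadjusted p below 0.05 was found for 78 members (11.5%) with cUA, beside 12.03% of all tested models, and for 24 (3.54%) with cGAMP, beside 5.24%, and the smallest adjusted p was 0.327 and 0.884.

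In level the members stood out only before length was considered. Their median control level was 41.6 CPM, against 11.4 in the models of 2 to 29 segments. Per kilobase of coding sequence the medians were 8.45 and 8.96 CPM. The highest per kilobase were Spis_XP_022795583_1 (37 segments, 334 CPM per kilobase), Spis_XP_022780292_1 (40 segments, 284), the arrays Spis_XP_022803549_1 (269) and Spis_XP_022779255_1 (265), and LOC111321038 (30 segments, 242). The order of these 5 is within their spread over libraries. Spis_XP_022780292_1 held 1665 ± 1151 CPM in control, with 3976 in 1A and 925 to 1548 in the other controls, and 1709 ± 1123 and 1572 ± 373 with cUA and cGAMP. It was called with neither compound (log2 fold changes 0.00 ± 0.38 and -0.12 ± 0.39).

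In spread the members were close to matched models. The median residual SD of log2 CPM within treatment and colony was 0.412 in members, 0.419 in models matched on level and 0.534 in models of 2 to 29 segments without matching. With joint matching on level and length it was 0.407 in the matched members and 0.495 in their comparison set. The coefficient of variation over the controls had a median of 0.247 in members and 0.280 in matched models. The steadiest members were Spis_XP_022790503_1 (37 segments, residual SD 0.0948), LOC111322551 (36 segments, 0.102) and Spis_XP_022785225_1 (30 segments, 0.107). LOC111322551 held 48.3 to 57.1 CPM in the controls, 41.1 to 55.4 with cUA and 44.7 to 57.1 with cGAMP. These ranges overlap almost fully.

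The most variable members differed between specimens of the same treatment. Spis_XP_022803326_1 (64 segments, residual SD 2.72) held 0.374 to 1.00 CPM in 4 controls and 26.1 and 25.3 in controls 1B and 1C. It held 0.430 to 0.678 CPM in cUA 1A, 1B and 2C and 28.4 to 59.4 in the other cUA libraries, and 2.33 to 64.5 with cGAMP. High and low libraries thus occurred in every treatment, and the log2 fold changes of 2.25 ± 1.53 and 2.38 ± 1.41 had adjusted p of 0.423 and 0.251. LOC111324010 (49 segments, 35 of them of 303 bases, residual SD 2.04) ran from 0.0266 to 4.23 CPM in the controls and from 0 to 2.31 with cUA. For Spis_XP_022780052_1 (34 segments, residual SD 1.77) cUA 2A at 183 CPM stood above all other libraries, which ran from 1.96 to 40.5. The high libraries of Spis_XP_022803326_1 and Spis_XP_022780052_1 were controls 1B and 1C, cUA 1C, 2A and 2B, and cGAMP 1A, 1B, 1C and 2C. The same libraries were the low ones of LOC111324010. Spis_XP_022779425_1 and Spis_XP_022789122_1, named after their values were seen, were also low in these libraries (0.871 to 3.12 and 0.109 to 1.33 CPM). In the rest they held 8.32 to 70.0 and 2.01 to 3.85 CPM. That division does not follow the colony labels and is uneven over the treatments. The colony term, the fits of each colony alone and the interaction test use those labels, so they hold only for colonies as labelled. The source of the division was not tested.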

How the data were processed

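Messenger RNA from 18 specimens of 2 colonies was sequenced after oligo(dT) enrichment with a directional kit, per the labels' protocols. The deposited values are whole-number counts per gene model without normalization. The submitters' processing notes list STAR, featureCounts and DESeq2 without versions or roles. Not given in the sources used here are the build, the strand setting and how multi-mapping reads were treated. The annotation deposited by the authors gave coding segments, phases and positions.

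Counts were tested with edgeR 4.0.16 in R 4.3.3 (TMM, robust quasi-likelihood, colony plus treatment, 14 residual degrees of freedom). Testing covered the 21375 models past filterByExpr (6 groups of treatment and colony), and a model was called at a Benjamini-Hochberg adjusted p below 0.05 over all of them. All adjusted p-values of single models come from edgeR unless DESeq2 1.42.0 is named. Log2 CPM used a prior count of 2. Libraries of a group differed by a chi-square per degree of freedom of at least 21.1, so none was a repeat of another within counting noise, and each was entered as a replicate. That does not test whether specimens of a colony are independent. The script was tested on simulated data. Specimen labels shared between treatments were not used as pairs. After group means were taken out, 6 of 18 pairs with a shared label correlated above 0.1. Their mean r was 0.0328, beside -0.0206 for pairs of unlike labels. With 3 specimens per treatment and colony this cannot exclude pairing.

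The members and lists were chosen with earlier results of these data known. Named members were, per compound and direction, up to 6 called members with the largest change, a mean of at least 1 CPM and the same sign in each colony, the 5 with the highest level per kilobase, the 5 with the most segments, the 3 with the highest and the 3 with the lowest spread, and the 4 with the smallest p between compounds. Other models were named after their values were seen. Protein motif classes had been planned and were not run, because no protein sequence was used here. Alternatives were DESeq2, other scaling, no filter, each colony alone, the replicate block, leaving out each library and other ways of matching.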

Additional observations from a re-analysis of the deposited data

Results flagged for a closer look

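In the summed level of the 54-base arrays, cGAMP 1A at 1035 CPM stood apart from the other cGAMP libraries, and it remained below the lowest control. The same library held 154.4 CPM of the array Spis_XP_022779255_1, above the other cGAMP libraries, and 0.1982 CPM of Spis_XP_022800806_1, below them.

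cUA 2A stood above the other cUA libraries in several members that rose or varied most. It held 807.5 CPM of Spis_XP_022797661_1, 21.07 CPM of Spis_XP_022806306_1, 65.61 CPM of LOC111328694 (Spis_XP_022788912_1) and 182.9 CPM of Spis_XP_022780052_1. LOC111336080 (Spis_XP_022797846_1) had its outlying value, 283.3 CPM, in cGAMP 2A. LOC111331727 (Spis_XP_022792631_1) had its outlying value, 5.92 CPM, in cGAMP 1C.

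Control 1A and cUA 2A, the libraries with the lowest scaling factors, stood out together in 3 of the most abundant members. LOC111321038 (Spis_XP_022779542_1) held 1378 CPM in control 1A and 973.3 in cUA 2A. Spis_XP_022780292_1 held 3976 and 3968 CPM there, and Spis_XP_022795583_1 2558 and 3087 CPM. Of 108 groups of 6 libraries looked at, 15 held such an outlying library. Chance alone flags about 5% of groups of any kind, but these groups belong to named members, some of which were picked for large changes or high spread, so the count is not evidence of an excess.

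The score of members minus matched models moved on average in opposite directions in the colonies with cUA. It lay above the mean of the controls in every cUA library of colony 1, by 0.0586 to 0.185. In colony 2 the distances ran from -0.455 to -0.00327, and cUA 2B was practically at the mean. The colony 2 controls themselves had scores from -0.222 to 0.158. The gap of 0.3657 between the colony averages was not tested.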

How the results depend on the processing

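In brackets below are the share of members and then that of all tested models. With cUA, 12 members rose (1.78%, 2.27%) and 15 fell (2.22%, 2.19%) in colony 1 alone. In colony 2 alone 3 rose (0.445%, 1.93%) and 4 fell (0.593%, 0.389%). With scaling by total counts 14 rose (2.06%, 4.12%), and without control 1A and cUA 2A 46 rose (6.78%, 7.71%). By DESeq2 39 fell (5.75%, 7.10%), and of the members without the arrays 13 fell (1.95%, 4.29%). With cGAMP, 28 rose in colony 1 alone (4.14%, 5.73%), and 8 rose (1.19%, 2.60%) and 11 fell (1.63%, 1.41%) in colony 2 alone. With total counts 25 rose (3.69%, 6.39%), and 113 rose without control 1A and cUA 2A (16.7%, 16.5%). Between the compounds DESeq2 called 1 member (0.147%, 0.482%) and 15 were called without those libraries (2.21%, 3.36%). Leaving out 1 library at a time gave 14 to 46 rises and 19 to 34 falls with cUA, 35 to 88 rises and 56 to 96 falls with cGAMP, and 0 to 0 between the compounds. Of all tested models 3.85% to 9.07% rose and 2.44% to 6.49% fell with cUA in these fits. With cGAMP 7.14% to 13.5% rose and 9.09% to 15.0% fell, and at most 0.206% differed between the compounds. Rises with cUA were 46 without control 1A (6.78%, 9.07%) and 14 without control 1B (2.06%, 4.18%). They were 15 (2.21%) without control 1C (4.76% of all), control 2C (4.60%) or cUA 1C (4.91%). Rises with cGAMP were 88 without control 1A (13.0%, 13.5%). The arrays that fell numbered 11 to 12 with cUA and 12 to 13 with cGAMP, where 1 or both otherwise untested arrays entered the fit, and in the colonies alone 6 and 0 with cUA and 4 in colony 2 with cGAMP. An otherwise untested array gave 0.08 with cUA without control 1A and cUA 2A. The replicate block takes shared specimen labels as pairs. In it 21 members rose (3.10%, 4.59%) and 22 fell (3.24%, 3.24%) with cUA. With cGAMP 39 rose (5.75%, 8.49%) and 66 fell (9.73%, 10.4%), and all 12 arrays fell with both compounds.

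For members minus matched models, the cGAMP median became 0.018 without matching and 0.0354 with matching per kilobase. The residual SD difference became -0.122, -0.114 and, with level and length, -0.0886. The share of rises with cUA differed by -10.1 percentage points with level and length. The share of falls with cUA differed by 1.84 for 40 or more segments and by -1.53 without the arrays. The share of rises with cGAMP differed by -2.85 without matching, -3.14 per kilobase, -10.5 with level and length and -8.32 without control 1A and cUA 2A. The share of falls with cGAMP differed by -0.98, -1.28 and, for 40 or more segments, 7.52. Where the cause is not in the setting itself, the cause was not tested. The named members had 34 called fold changes. Over all alternatives, calls of named members were lost 41 times, 7 of them in colony 1 alone, 23 in colony 2 alone and 11 elsewhere, and gained 15 times. 46 of 1833 values had the other sign, all where neither fit called the value, so 0 called values turned direction.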
